A study of Homo sapiens with 12 samples.

Results

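The genes described here are 39 members of the ATF4 program and the unfolded protein response, measured in HaCaT keratinocytes kept in the dark or irradiated with blue light. They were chosen by symbol from the 45372 rows of the count table and fall into an amino acid arm of 22 genes around ATF4 and an endoplasmic reticulum (ER) arm of 17 genes around XBP1 and ATF6. Of these, 38 passed the filter on low counts and were tested among 12878 genes. VLDLR, a lipoprotein receptor, did not pass and had 0 to 4 counts in each library. HaCaT is a spontaneously immortalized line of human skin keratinocytes, labelled wild-type in every group. The irradiated groups, blue_3, blue_14 and blue_42, received 3, 14 or 42 irradiations of 50 J per cm2 at 408 nm in buffered saline, in sessions held 3 times a week. The labels give this dose as one that kills 50% of the cells. Each irradiated group has its own dark control, dark_3, dark_14 or dark_42, and every group has 2 libraries, lettered a and b. The number of irradiations runs with the time in culture, so the dark groups among themselves compare culture series rather than light. Total RNA was sequenced from the 3′ ends of transcripts, which yields about 1 tag per transcript, so levels in CPM (counts scaled to the same library size) can be compared between genes without scaling by length.

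ATF4 is a transcription factor whose mRNA is translated preferentially when the initiation factor eIF2 is phosphorylated, by PERK (EIF2AK3) at the ER, by GCN2 when amino acids are scarce, and by other kinases. It drives genes for amino acid synthesis and uptake, for the transcription factor CHOP (DDIT3), and for brakes on the response such as TRIB3 and PPP1R15A. The ER arm answers unfolded protein in the ER lumen, where the sensor IRE1 (ERN1) splices XBP1 mRNA and ATF6 is cut to release a transcription factor, and both raise chaperones and the ER-associated degradation machinery. Splicing of XBP1, cleavage of ATF6, phosphorylation and translation are not seen by 3′ tags, so what follows concerns transcript levels only.

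The arms are known for different promoter elements, and those found in front of members are shown here because the levels below are grouped by arm. RefSeq promoters of GRCh38.p14, running from 250 bases before to 50 after each start, were held for 34 members, 19 of the amino acid arm and 15 of the ER arm. The C/EBP-ATF response element (CARE), searched as TGATGNAA on both strands, stood in promoters of 5 of the 19 amino acid arm members (ASNS, CEBPG, CHAC1, SLC1A5 and SLC3A2) and 1 of the 15 ER arm members (HERPUD1), against 3.62% of 35116 promoters of all genes. The ER stress response element (ERSE), searched as CCAAT, 9 bases of any kind and CCACG, stood in 0 of 19 and 5 of 15 (CALR, CANX, CRELD2, PDIA6 and XBP1), against 0.0769% of all. The XBP1-type element TGACGTGG was found in neither arm, against 0.729% of all promoters. A member counted if any of its promoters matched, and the 34 members had 53 promoters, whereas the shares of all are per single promoter. Members and background are therefore not counted alike. The members were chosen by symbol as genes of these arms, so their shares are no independent test of the elements. These are matches of letters, not measured binding. The sequences are given 5′ to 3′ on the gene's strand, with the element in capitals. In HERPUD1, CHAC1, CALR and CRELD2 the element lies on the opposite strand, so its reverse complement is in capitals.
CHAC1 (CARE, chr15:40953252-40953279, + strand): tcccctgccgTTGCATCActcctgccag
ASNS (CARE, chr7:97872459-97872486, − strand): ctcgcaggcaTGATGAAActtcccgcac
CEBPG (CARE, chr19:33374061-33374088, + strand): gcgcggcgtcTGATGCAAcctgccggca
SLC1A5 (CARE, chr19:46784894-46784921, − strand): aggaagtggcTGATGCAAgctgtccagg
HERPUD1 (CARE, chr16:56931956-56931983, + strand): acgcggcgggTTGCATCAgcccgtgccc
XBP1 (ERSE, chr22:28800598-28800626, − strand): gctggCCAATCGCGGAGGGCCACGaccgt
CANX (ERSE, chr5:179698773-179698801, + strand): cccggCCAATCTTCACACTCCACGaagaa
CRELD2 (ERSE, chr22:49918549-49918577, + strand): cctctCGTGGCGAACTCGGATTGGgccat
PDIA6 (ERSE, chr2:10812848-10812876, − strand): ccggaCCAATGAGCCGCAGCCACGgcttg
CALR (ERSE, chr19:12938379-12938407, + strand): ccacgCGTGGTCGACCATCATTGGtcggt
GENCODE release 29 places the CHAC1, ASNS and CANX windows in exonic UTR of transcripts of the same gene, 12 bases of the SLC1A5 window likewise, and the CEBPG, CRELD2 and PDIA6 windows in introns. The XBP1, CALR and HERPUD1 windows lie in no annotated transcript. The CARE of SLC3A2 lies after the start and is not printed.

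Libraries held 2073160 (blue_14 b) to 8183941 (blue_42 b) counts, so 3 counts correspond to 0.364 to 1.43 CPM. The 2 libraries of a group differed by more than sampling noise in all 6 groups, the chi-square divided by its degrees of freedom being 1.61 in dark_3 and 4.71 to 7.98 elsewhere. Whether a and b were separate cultures is not stated in the labels, and p-values then cover only how far these libraries spread, which may be technical. The last 1000 bases of ATF5, DDIT3, DDIT4, SHMT2, MTHFD2, SLC1A5, EIF2AK3, PDIA3, PDIA6, CALR and DERL1 overlap a gene on the other strand, and the sources used here do not give the strand setting of the counting, so these levels are uncertain to that extent. ATF5 and ASNS also share those bases with a gene on the same strand (MIR4751 and AC079781.5), which no strand setting would separate. All 12 keratinocyte markers were detected in every library, at a summed 5898 to 8805 CPM, lowest in dark_42. Markers of other cells were low: 8 fibroblast markers summed to 4.28 to 14.8 CPM (highest in dark_14, DPT at 0), 8 leukocyte markers to 1.44 to 6.43 CPM and 6 melanocyte markers to 10.6 to 16.4 CPM, mostly MITF, with MLANA and TYR at 0. The 12 neuronal markers were higher, mostly NEFL. Their sum was 188 to 190 CPM in dark_3 and 221 to 254 CPM in blue_3. It was 173 to 198 CPM in dark_14 and 120 to 140 CPM in blue_14. At 42 irradiations it was 83.4 to 124 CPM in dark_42 and 99.1 to 122 CPM in blue_42. The irradiated libraries were thus above the dark ones at 3, below them at 14 and within their range at 42. NEFL ranged from 41.6 to 163 CPM, MAP2 from 13.4 to 36.4, ELAVL4 from 11.4 to 23.9, SYT1 from 2.06 to 23.5 and SNAP25 from 0.159 to 15.2 CPM. The other 7 did not exceed 6.87 CPM in any library, and TUBB3, a neuronal tubulin, was the lowest at 0 to 0.260 CPM. The part of these transcripts in the results below was not tested. In bulk RNA, fewer cells of a type and less RNA per cell cannot be told apart.

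Blue light changed no member of either arm past the test at any irradiation number, with edgeR's quasi-likelihood test and Benjamini-Hochberg adjustment over all tested genes. After 3 irradiations 0 of 38 members were called, where 0.0155% of all genes were, after 14 irradiations 0 members against 0% of all, and after 42 irradiations 0 members against 1.23% of all. At an unadjusted p under 0.05 there were 3, 8 and 6 members, against 6.92%, 5.89% and 13.3% of all genes. At 42 irradiations the differences ran from −0.20 to 1.16 log2 units in the amino acid arm and from −0.30 to 0.47 in the ER arm, as the plot of light differences shows.

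**Figure D1:**
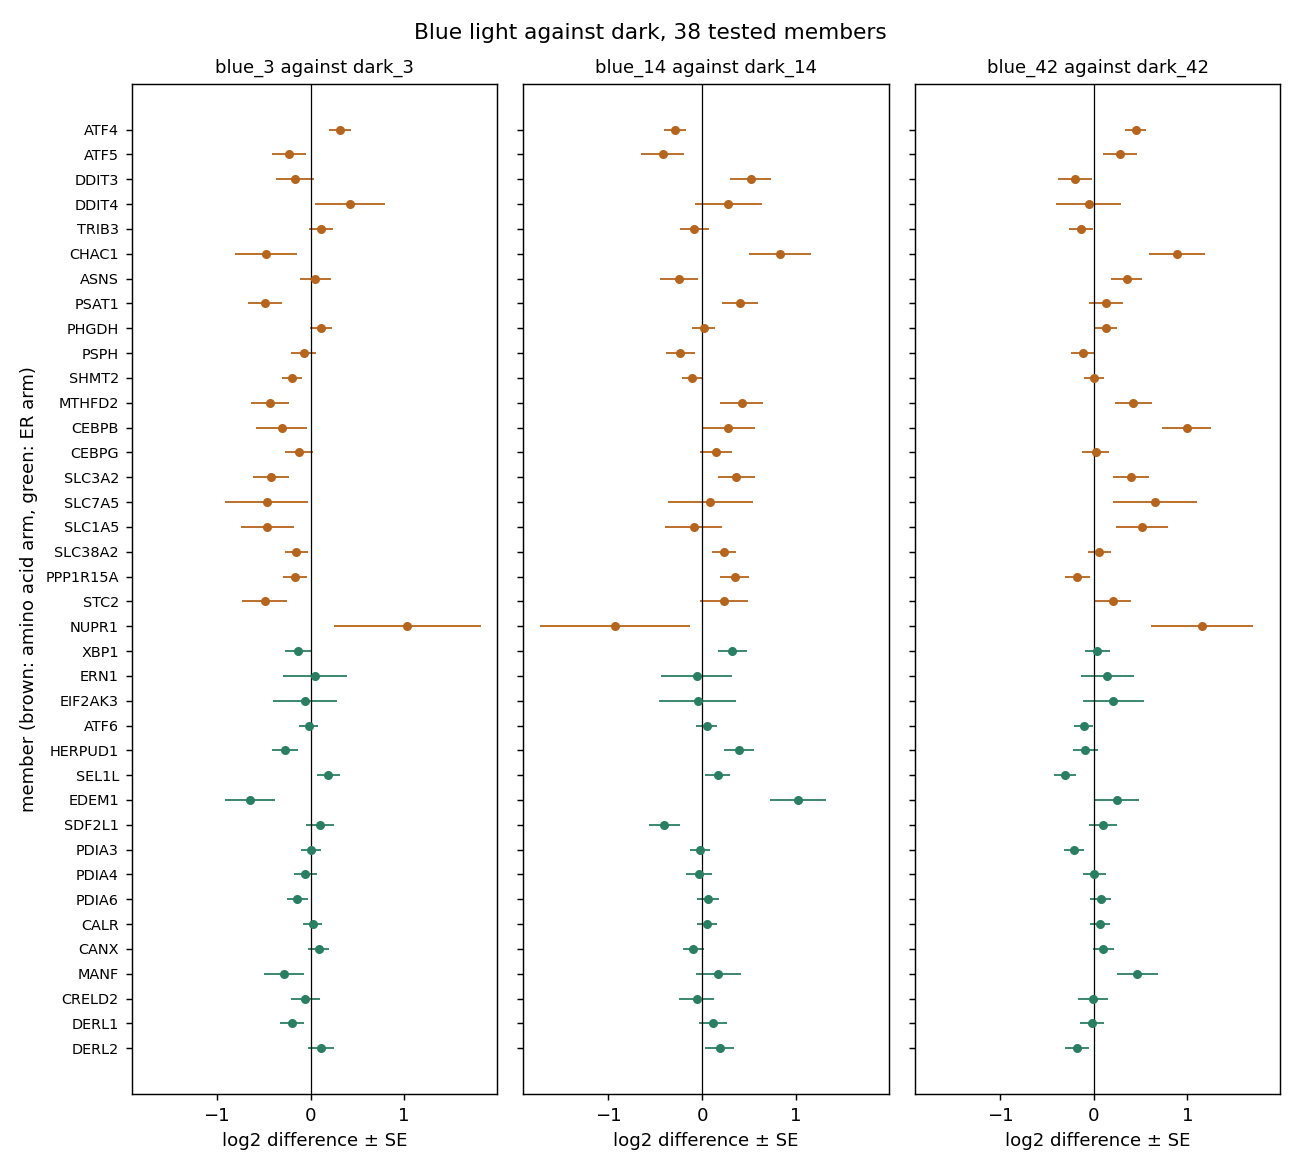
Log2 difference between irradiated and dark libraries (x axis, log2 units, bars ± 1 SE) for the 38 tested members (y axis, amino acid arm in brown, ER arm in green) after 3, 14 and 42 irradiations, in 3 panels. None passed the test, ATF4 lay at 0.31, −0.29 and 0.45, and EDEM1 of the ER arm at −0.64, 1.03 and 0.25.

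ATF4 itself, on chromosome 22 (39519695 to 39522685, GRCh38), was abundant, at 319 and 323 CPM in dark_3 a and b against 381 and 416 CPM in blue_3. At 14 irradiations the order was the other way, with 385 and 388 CPM in dark_14 and 330 and 300 CPM in blue_14. At 42 irradiations dark_42 held 258 and 214 CPM and blue_42 held 341 and 303 CPM. The irradiated and dark libraries thus did not overlap in any of the 3 comparisons, but the irradiated libraries were the higher at 3 and 42 irradiations and the lower at 14. The log2 differences were 0.31 ± 0.11 (SE), −0.29 ± 0.12 and 0.45 ± 0.12, with edgeR adjusted p of 0.561, 0.804 and 0.0604. At 42 irradiations dark_42 was the lowest of all 6 groups in ATF4, while blue_42 was near dark_3. ATF4 was called at 42 irradiations by DESeq2, without any filter on low counts, and in edgeR fits without blue_14 a, blue_14 b or dark_42 a, over a leave-one-out range of 0.33 to 0.58. Counts of 4 ATF4 pseudogenes came to 0.0446% of those of ATF4.

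DDIT3, which encodes the pro-apoptotic factor CHOP, was at 13.2 and 11.7 CPM in dark_3, against 11.4 and 10.7 CPM in blue_3. It was at 16.6 and 12.1 CPM in dark_14 and 17.0 and 23.9 CPM in blue_14, then 18.2 and 19.4 CPM in dark_42 and 15.0 and 17.7 CPM in blue_42. The libraries were apart each time, with light lower at 3 and 42 irradiations and higher at 14, and the highest library was blue_14 b, the shallowest. The log2 differences were −0.16 ± 0.20, 0.52 ± 0.22 and −0.20 ± 0.18 (edgeR adjusted p = 0.895, 0.818 and 0.696). The gene on the other strand at its 3′ end is MARS.

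CEBPB, a transcription factor that pairs with ATF4, was at 31.1 and 22.5 CPM in dark_42 and at 53.2 and 53.8 CPM in blue_42. At 3 irradiations dark_3 held 40.4 and 39.2 CPM, while blue_3 a at 43.0 and blue_3 b at 20.4 CPM lay on either side of them. At 14 irradiations dark_14 held 52.1 and 45.2 CPM and blue_14 held 62.1 and 54.0 CPM. The libraries were apart at 14 and 42 irradiations, with light higher. The log2 difference at 42 was 1.00 ± 0.26, with an edgeR adjusted p of 0.113. Fits that called it include DESeq2, edgeR without a low-count filter or on the 4 libraries compared, and edgeR without blue_3 a or without blue_3 b.

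CHAC1, which degrades glutathione and is a target of ATF4, gave 11.6 and 7.78 CPM in dark_3 against 6.62 and 7.28 CPM in blue_3. In the later groups it gave 14.3 and 9.45 CPM in dark_14 against 18.1 and 22.9 CPM in blue_14, and 10.9 and 5.07 CPM in dark_42 against 17.0 and 12.6 CPM in blue_42. Light was higher in both libraries at 14 and 42 irradiations and lower in both at 3. The differences at 14 and 42 were 0.83 ± 0.33 and 0.89 ± 0.30 log2 units (edgeR adjusted p = 0.804 and 0.178). The value at 42 ran from 0.45 without dark_42 b to 1.54 without dark_42 a, and it was called in the latter fit and without a low-count filter.

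NUPR1, a small stress-induced chromatin protein, showed large differences on few reads: 5 and 1 counts in dark_3, 6 and 7 in blue_3, 9 and 10 in dark_14, 3 and 2 in blue_14, 4 and 11 in dark_42 and 15 and 20 in blue_42. On the CPM scale, blue_42 stood at 1.94 and 2.43 CPM and dark_42 at 0.512 and 1.43 CPM. The log2 differences of 1.03 ± 0.78, −0.93 ± 0.80 and 1.16 ± 0.54 had edgeR adjusted p of 0.83, 0.9 and 0.362. At these counts no change was detectable.

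DDIT4, the mTOR inhibitor also called REDD1, TRIB3, the pseudokinase that restrains ATF4, and ATF5, a related factor, gave no called difference with light. TRIB3 stayed between 30.6 and 42.5 CPM over all 12 libraries. PPP1R15A (GADD34), the phosphatase subunit that reverses eIF2 phosphorylation, was at 56.6 and 59.5 CPM in dark_3, against 54.2 and 49.4 CPM in blue_3. Its values per series are taken up with the culture series below, where they passed the test.

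The enzymes of serine and one-carbon synthesis were steady to moderately spread. PHGDH, the entry enzyme of serine synthesis, ranged from 153 to 202 CPM, SHMT2 from 121 to 151 CPM and PSPH from 25.8 to 44.6 CPM. PSAT1, the transaminase between PHGDH and PSPH, was at 215 and 201 CPM in dark_3, 165 and 131 CPM in blue_3, 129 in both dark_14 libraries, 183 and 157 CPM in blue_14, 207 and 136 CPM in dark_42 and 213 and 163 CPM in blue_42. Light was thus lower than dark at 3 irradiations and higher at 14, with no overlap, and the ranges overlapped at 42. The difference at 3 was −0.49 ± 0.18 (edgeR adjusted p = 0.608), and was called only without a low-count filter among the alternatives run. MTHFD2, the mitochondrial folate enzyme, ranged from 33.3 to 69.9 CPM with blue_3 b lowest and blue_42 a highest. ASNS, asparagine synthetase, ranged from 16.7 CPM in blue_14 b to 35.1 CPM in blue_3 a.

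The amino acid transporters include the most abundant genes of the arm, and several differed widely between the 2 libraries of a group. SLC7A5 (LAT1), which imports large neutral amino acids, held 795 and 834 CPM in dark_3, 655 and 524 in blue_3, 516 and 581 in dark_14, 810 and 349 in blue_14, 519 and 267 in dark_42 and 709 and 532 in blue_42. SLC3A2 (4F2hc), its partner chain, held 458 and 463 CPM in dark_3, 395 and 292 in blue_3, 283 and 298 in dark_14, 404 and 343 in blue_14, 318 and 210 in dark_42 and 397 and 300 in blue_42. SLC1A5 (ASCT2), a glutamine carrier, ranged from 57.3 CPM in blue_14 b to 124 CPM in blue_42 a. In blue_3, blue_14, dark_42 and blue_42 library b lay below library a for all 3, and in dark_3 and dark_14 it did not for SLC7A5 and SLC3A2. Over the 34 members above 10 CPM on average, the median absolute log2 ratio between the 2 libraries of a group was 0.091 in dark_3, 0.157 in blue_3, 0.113 in dark_14, 0.220 in blue_14, 0.228 in dark_42 and 0.162 in blue_42. The medians over 8689 genes at that level were 0.086, 0.145, 0.155, 0.209, 0.166 and 0.124. In dark_42, 9 of the 34 members exceeded the 95th percentile of all genes, and in the other groups 2 to 4 did.

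**Figure D2:**
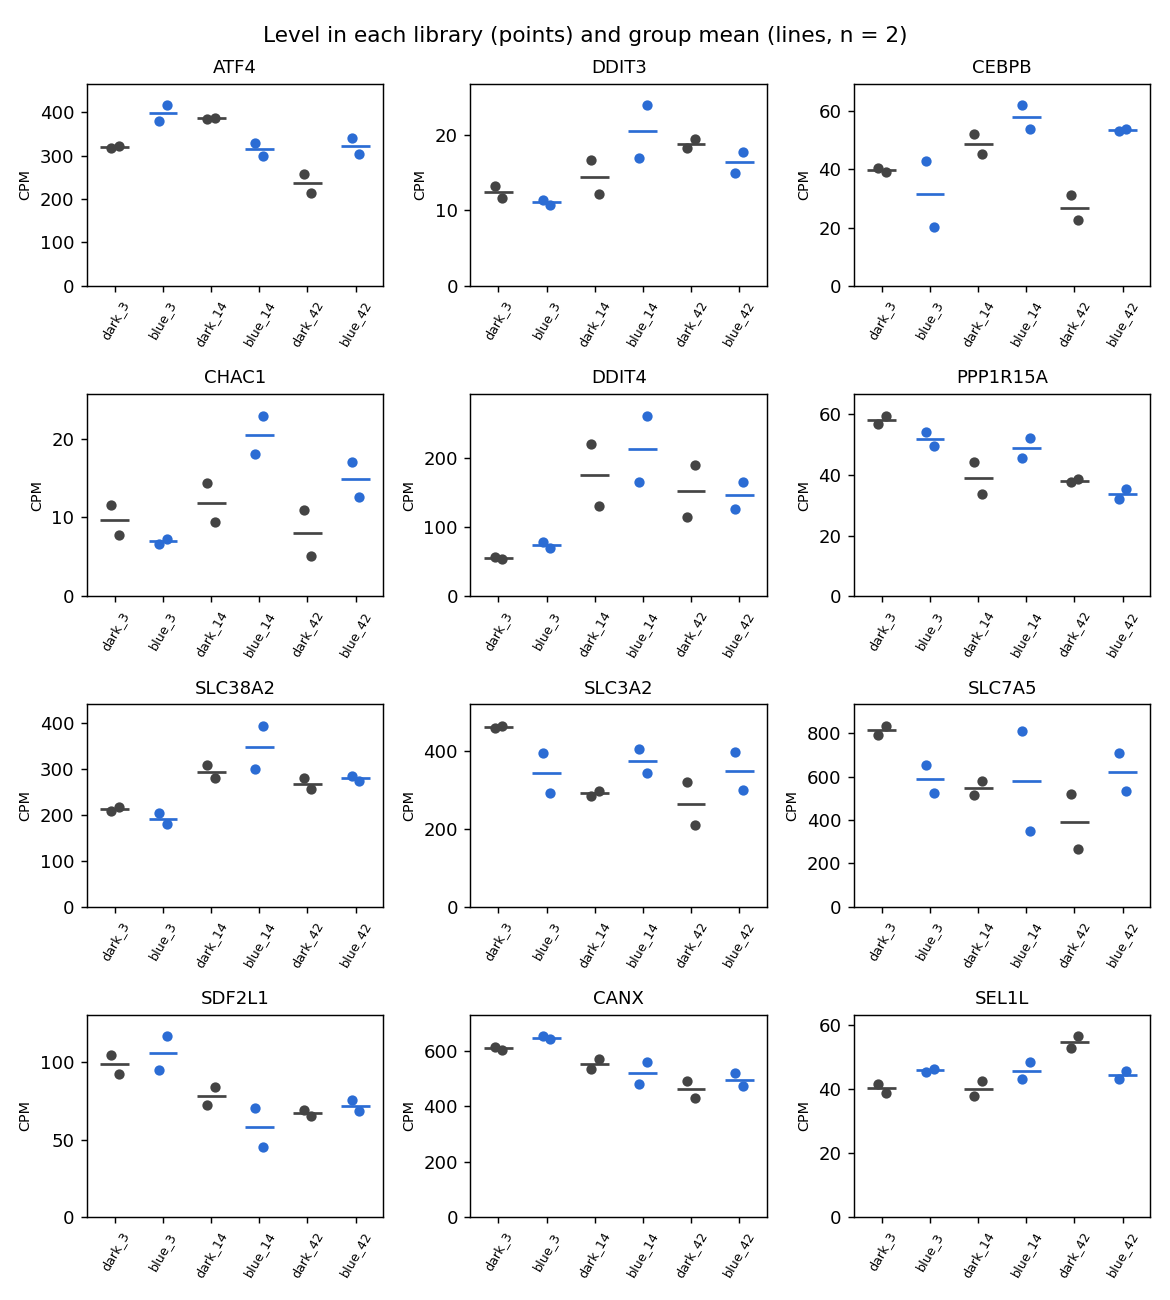
Level in CPM (y axis, from 0) of 12 members in each library (points) of the 6 groups (x axis, dark in grey, irradiated in blue), with group means as lines (n = 2). ATF4 is lowest in dark_42, DDIT4 is lower in both 3-irradiation groups than in the others, and SLC7A5 differs most between the libraries of blue_14 and dark_42.

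As a list, 6 of 21 tested members of the amino acid arm lay above 0 after 3 irradiations (median log2 difference −0.16), 13 after 14 (median 0.15) and 16 after 42 (median 0.20). Of all genes, 52.4%, 48.6% and 49.5% lay above 0, and the median of all genes was 0.01, −0.01 and −0.00. Libraries did not overlap for 16, 13 and 10 of the 21, against 43.6%, 33.2% and 42.2% of all genes. At 3 irradiations 5 were higher and 11 lower with light, where 23.7% and 19.9% of all genes were, and at 42 irradiations 7 were higher and 3 lower, where 21.3% and 20.9% of all genes were. The mean of the arm on the log2(CPM + 1) scale against the dark_3 mean was −0.08 and −0.23 in blue_3 a and b, 0.11 and −0.06 in dark_14, 0.16 and 0.01 in blue_14, 0.03 and −0.21 in dark_42 and 0.23 and 0.13 in blue_42. These gaps between the 2 libraries of a group are as wide as many of the differences between groups.

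In the ER arm the light differences ran from −0.64 to 0.19 log2 units at 3 irradiations and from −0.40 to 1.03 at 14. XBP1 was at 59.1 and 58.9 CPM in dark_3, 58.9 and 48.7 in blue_3, 50.4 and 60.045 in dark_14, 72.4 and 66.8 in blue_14, 68.8 and 53.8 in dark_42 and 66.8 and 59.2 in blue_42. Dark and irradiated libraries overlapped at 3 and 42 irradiations and were apart at 14, with light higher by 0.32 ± 0.15 log2 units (edgeR adjusted p = 0.834), beside −0.13 ± 0.14 at 3 and 0.04 ± 0.14 at 42. ATF6 was at 88.3 and 92.3 CPM in dark_3, 88.5 and 89.5 in blue_3, 86.5 and 87.6 in dark_14, 87.9 and 92.6 in blue_14, 103 and 105 in dark_42 and 96.5 and 96.9 in blue_42. Its highest library was 1.22 times its lowest, and its light differences were −0.02 ± 0.10, 0.05 ± 0.11 and −0.11 ± 0.10.

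The sensor kinases were scarce. ERN1 (IRE1) was at 3.33 and 3.31 CPM in dark_3, 2.91 and 4.05 in blue_3, 6.30 and 4.34 in dark_14, 4.60 and 5.25 in blue_14, 4.23 and 5.59 in dark_42 and 4.26 and 6.56 in blue_42, resting on 11 to 54 counts. EIF2AK3 (PERK) was at 6.82 and 5.33 CPM in dark_3, 6.23 and 5.34 in blue_3, 10.3 and 4.73 in dark_14, 4.31 and 10.0 in blue_14, 5.25 and 6.24 in dark_42 and 7.62 and 5.71 in blue_42. Dark and irradiated libraries overlapped for both sensors in every series. Their light differences lay between −0.06 and 0.21 log2 units with SEs of 0.28 to 0.41, and their sign depended on single libraries. No change was thus detectable in these libraries, and the cause of their spread was not tested.

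Among genes of ER-associated degradation, EDEM1, which extracts misfolded glycoproteins from the folding cycle, was at 7.13 and 9.07 CPM in dark_3, against 6.62 and 3.56 CPM in blue_3. It was at 5.16 and 6.26 CPM in dark_14 and 10.6 and 13.8 CPM in blue_14, then 7.81 and 8.71 CPM in dark_42 and 10.2 and 9.47 CPM in blue_42. Light was lower at 3 irradiations and higher at 14 and 42, without overlap each time. The differences were −0.64 ± 0.27, 1.03 ± 0.30 and 0.25 ± 0.24 (edgeR adjusted p = 0.645, 0.709 and 0.718), and the first ran from −1.19 without blue_3 a to −0.30 without blue_3 b. HERPUD1, a ubiquitin-like scaffold of the same machinery, was at 32.8 and 29.96 CPM in dark_3, 25.6 and 26.4 in blue_3, 24.9 and 29.1 in dark_14, 39.4 and 31.5 in blue_14, 35.2 in both dark_42 libraries and 36.2 and 30.2 in blue_42. It was lower with light at 3 irradiations (−0.27 ± 0.14, edgeR adjusted p = 0.733) and higher at 14 (0.39 ± 0.16, 0.804), and the libraries overlapped at 42. SEL1L, the adaptor of the HRD1 ligase, differed by −0.30 ± 0.12 at 42 irradiations (edgeR adjusted p = 0.24), with 52.8 and 56.3 CPM in dark_42 and 43.0 and 45.4 CPM in blue_42. DERL1 and DERL2, channel proteins of the pathway, stayed between 30.1 and 39.2 CPM and between 34.1 and 45.8 CPM.

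Of the chaperones and folding enzymes, CALR had the narrowest range of all members, 290 to 334 CPM. The protein disulfide isomerases ranged from 450 to 609 CPM for PDIA3, 56.6 to 82.4 CPM for PDIA4 and 274 to 346 CPM for PDIA6. MANF, a secreted ER stress factor, was at 49.6 and 45.9 CPM in dark_3, 46.4 and 31.4 in blue_3, 43.2 and 39.7 in dark_14, 43.7 and 50.1 in blue_14, 33.4 and 21.7 in dark_42 and 44.5 and 31.8 in blue_42. Its dark and irradiated libraries overlapped at 42 irradiations, where the difference was 0.47 ± 0.22 (edgeR adjusted p = 0.382), and also at 3, where it was −0.29 ± 0.21 (0.828). SDF2L1, an ER-lumenal protein of the chaperone complex, differed by −0.40 ± 0.17 at 14 irradiations (edgeR adjusted p = 0.804), with 72.2 and 83.9 CPM in dark_14 and 70.7 and 45.4 CPM in blue_14. HSPA5 (BiP), the main ER chaperone and no member here, ranged from 714 to 899 CPM and was called in none of the 12 comparisons. The ER arm as a list had 7, 10 and 10 of 17 members above 0 in the 3 light comparisons. Of all genes 52.4%, 48.6% and 49.5% lay above 0. The medians of the arm were −0.06, 0.06 and 0.04. Libraries were apart for 6, 9 and 6 of its members, against 43.6%, 33.2% and 42.2% of all genes.

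More members passed the test between dark cultures than between light and dark. Against dark_3, 10 of 38 members were called in dark_42, where 17.7% of all genes were (9.47% higher, 8.26% lower), and 5 in dark_14, where 12.7% of all genes were (8.11% higher, 4.61% lower), a share close to the background. In dark_42 the members that rose were DDIT3, DDIT4 and SEL1L, and those that fell were ATF4, SLC3A2, PPP1R15A, SDF2L1, CANX, MANF and CRELD2. In dark_14, DDIT4 and SLC38A2 rose, and PSAT1, SLC3A2 and PPP1R15A fell. Both comparisons use the dark_3 libraries. Most member calls in dark_42 were lost without dark_3 a, dark_3 b or dark_42 b. Most in dark_14 were lost without dark_3 a, dark_3 b, dark_14 a or dark_14 b. Each of these fits leaves 1 library in a compared group. Calls over all genes fell as well in dark_42 without dark_3 a, and are not given here for the other fits. These losses therefore do not set the members apart from other genes. Of all member calls between series, those of PPP1R15A in dark_42 against dark_3, ATF4 in dark_42 against dark_14 and SLC38A2 in blue_14 against blue_3 were made in each of the 12 fits that left out 1 library, and every other was lost in at least 1.

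DDIT4 was at 57.2 and 53.6 CPM in dark_3, against 79.2 and 69.5 CPM in blue_3. It was at 221 and 131 CPM in dark_14, 165 and 262 in blue_14, 115 and 190 in dark_42 and 127 and 166 in blue_42. Every later library lay above every 3-irradiation library. The increase from dark_3 was 1.65 ± 0.37 log2 units to dark_14 (edgeR adjusted p = 0.0313) and 1.46 ± 0.37 to dark_42 (0.0351). Both calls were lost without a low-count filter, and DDIT4 overlaps an antisense gene at its 3′ end, so its count is uncertain to that extent.

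PPP1R15A was at 44.1 and 33.7 CPM in dark_14, 45.7 and 52.0 in blue_14, 37.5 and 38.5 in dark_42 and 31.9 and 35.5 in blue_42, below both dark_3 libraries each time. It fell by 0.61 log2 units from dark_3 to dark_14 (SE 0.14, edgeR adjusted p = 0.00705) and by 0.61 to dark_42 (SE 0.13, 0.00316), and from blue_3 to blue_42 by 0.62 (SE 0.13, 0.00602).  ATF4 was called lower in dark_42 than in dark_14, by 0.71 log2 units (SE 0.12, edgeR adjusted p = 0.000853), and lower than in dark_3 by 0.44 (SE 0.12, 0.0117).

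SLC3A2 fell from dark_3 by 0.66 log2 units to dark_14 (SE 0.20, edgeR adjusted p = 0.0448) and by 0.80 to dark_42 (SE 0.20, 0.0145). The value in dark_42 ranged from −1.15 without dark_42 a to −0.56 without dark_42 b. SLC38A2 (SNAT2), a sodium-coupled transporter of small neutral amino acids, ran the other way. It was at 210 and 217 CPM in dark_3, 204 and 179 in blue_3, 308 and 281 in dark_14, 301 and 394 in blue_14, 280 and 257 in dark_42 and 285 and 274 in blue_42. All later libraries lay above all 3-irradiation libraries, and the increase from dark_3 to dark_14 was 0.47 ± 0.12 (edgeR adjusted p = 0.0186).

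Among ER arm members in dark_42 against dark_3, SDF2L1 was at 105 and 92.8 CPM in dark_3, with 69.2 and 65.5 CPM in dark_42, a difference of −0.55 ± 0.15 log2 units (edgeR adjusted p = 0.0151). CANX, the membrane chaperone calnexin, was at 613 and 605 CPM in dark_3, 652 and 641 in blue_3, 536 and 570 in dark_14, 481 and 559 in blue_14, 490 and 431 in dark_42 and 520 and 471 in blue_42. Its change from dark_3 to dark_42 was −0.40 ± 0.11 (edgeR adjusted p = 0.0178). MANF changed by −0.79 ± 0.22 (0.0238) and CRELD2, a secreted ER stress protein, by −0.52 ± 0.16 (0.0258), from 36.1 and 38.9 CPM to 29.7 and 22.5 CPM. CRELD2 was at 39.3 and 32.5 CPM in blue_3, 28.1 and 27.9 in dark_14, 31.0 and 21.0 in blue_14 and 26.7 and 25.1 in blue_42. SEL1L rose by 0.44 ± 0.12 (edgeR adjusted p = 0.0139), from 41.5 and 38.7 CPM, and by 0.43 ± 0.12 from dark_14 at 37.8 and 42.3 CPM (0.0347). ATF4 and SEL1L were the 2 members called between dark_14 and dark_42, where 7.04% of all genes were (1.81% higher, 5.23% lower), and SEL1L lost that call without any 1 of the 6 dark libraries. Over the fits without 1 library, the ATF4 difference ran from −0.83 without dark_42 a to −0.58 without dark_42 b. That of SEL1L ran from 0.37 without dark_14 a to 0.53 without dark_14 b. MANF, CRELD2 and SLC3A2 each had dark_42 b as their lowest library in dark_42, and the MANF value ran from −1.15 without dark_42 a to −0.54 without dark_42 b. Of the amino acid arm, DDIT3 rose by 0.60 ± 0.19 log2 units from dark_3 to dark_42 (edgeR adjusted p = 0.0322). PSAT1, of the same arm, fell by 0.68 log2 units from dark_3 to dark_14 (SE 0.18, edgeR adjusted p = 0.0282). With DESeq2 the calls of DDIT3, SEL1L and CRELD2 in dark_42 against dark_3, and of SEL1L against dark_14, were lost.

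Among the irradiated cultures, 7 of 38 members were called in blue_42 against blue_3, where 7.78% of all genes were (4.40% higher, 3.39% lower), and 5 in blue_14 against blue_3, where 6.22% of all genes were (3.62% higher, 2.60% lower). In blue_42, CHAC1, SLC38A2, STC2 and EDEM1 rose, and PPP1R15A, SDF2L1 and CANX fell. In blue_14, DDIT3, CHAC1, SLC38A2 and EDEM1 rose, and SDF2L1 fell. Both comparisons use the blue_3 libraries. Between blue_42 and blue_14 no member was called, where 0.241% of all genes were, and 3 members had an unadjusted p under 0.05, against 12.5% of all genes. Fewer members were called in blue_42 and in blue_14 against blue_3 when either blue_3 a or blue_3 b was left out. So it was for blue_42 without blue_42 a or blue_42 b, and for blue_14 without blue_14 b. Each of these fits leaves 1 library in a compared group, and its calls over all genes are not given here.

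SLC38A2 rose by 0.85 ± 0.13 log2 units in blue_14 (edgeR adjusted p = 0.000742) and by 0.55 ± 0.12 in blue_42 (0.00897). CHAC1 rose by 1.54 ± 0.34 (0.017) and 1.09 ± 0.31 (0.0424). DDIT3 rose by 0.84 ± 0.22 in blue_14 (0.0275), where the highest library was again blue_14 b. STC2, stanniocalcin 2, a secreted glycoprotein induced by ER stress, was at 14.3 and 12.8 CPM in blue_3 and 30.1 and 29.3 CPM in blue_42, a rise of 1.13 ± 0.22 (0.00471). STC2 was at 22.7 and 15.7 CPM in dark_3, 17.8 and 20.4 in dark_14, 27.9 and 15.8 in blue_14 and 30.6 and 20.9 in dark_42. Blue_42 lay above blue_3 in both libraries, while dark_42 a was as high as blue_42 and dark_42 b lower, and the light difference at 3 irradiations was −0.49 ± 0.24 (edgeR adjusted p = 0.721).

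EDEM1 rose by 1.20 ± 0.30 log2 units in blue_14 (edgeR adjusted p = 0.0203) and by 0.92 ± 0.26 in blue_42 (0.033). The first value ran from 0.85 without blue_3 b to 1.74 without blue_3 a, and the second from 0.57 to 1.46 without the same libraries, blue_3 b having the lowest EDEM1 of all, 3.56 CPM. SDF2L1 fell by 0.83 log2 units in blue_14 (SE 0.16, 0.00666), from 95.2 and 117 CPM in blue_3, and by 0.56 in blue_42 (SE 0.15, 0.0259), to 75.4 and 68.6 CPM. CANX fell by 0.38 in blue_42 (SE 0.11, edgeR adjusted p = 0.04). The call of EDEM1 in blue_42 was lost with DESeq2, and that of DDIT3 in blue_14 in the fit on the 4 libraries compared.

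The 42-against-3 differences of the dark and of the irradiated cultures rest on separate libraries and can be set side by side. Over the 38 members they correlated across genes with Pearson's r of 0.54 and Spearman's rho of 0.48, and 25 members had the same sign. Over all 12878 genes r was 0.60 and 67.8% had the same sign. PPP1R15A, SDF2L1 and CANX were called lower in both, which is 30% of the 10 members called in dark and 42.9% of the 7 called in irradiated cultures, against 27.2% and 62.1% for all genes. Genes are not independent replicates, so no p is given. For 14 against 3, r was 0.35 over the members and 0.47 over all genes, and SLC38A2 was the member called in both. In the scatter of these differences CHAC1 and EDEM1 lie high on the irradiated axis at −0.27 and 0.02 on the dark axis, and SLC3A2 and MANF lie low on the dark axis at 0.02 and −0.04 on the irradiated axis. The difference between the 2 axes is the change of the light effect from 3 to 42 irradiations, tested next.

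**Figure D3:**
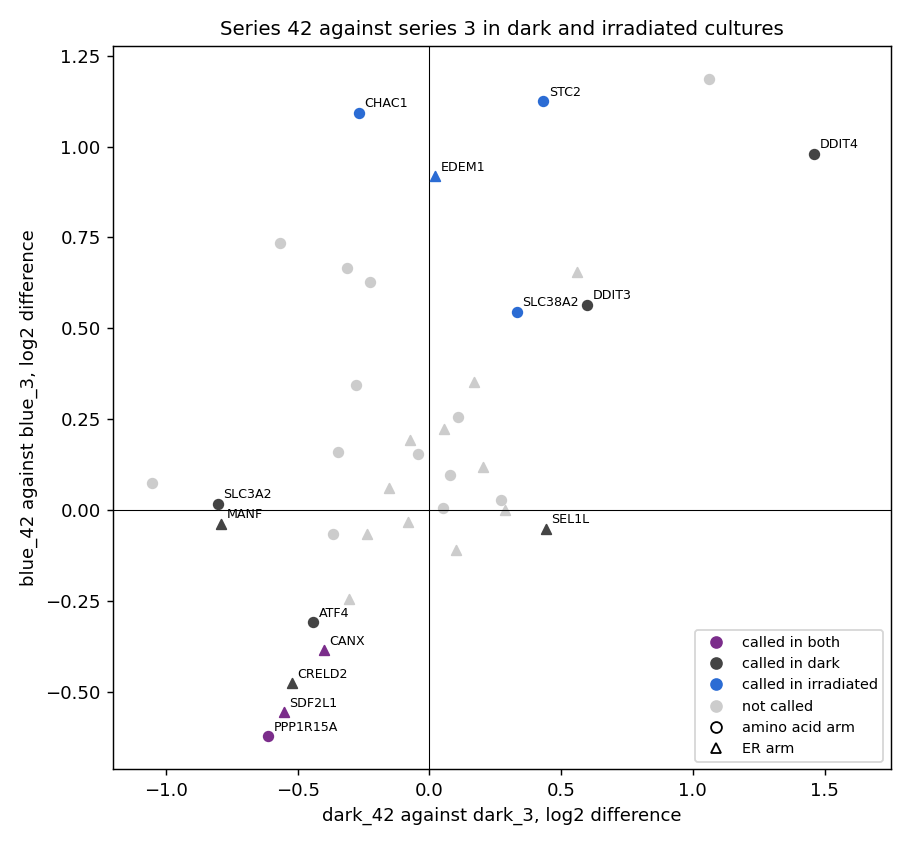
Log2 difference from series 3 to series 42 in dark cultures (x axis) and irradiated cultures (y axis) for the 38 tested members, circles for the amino acid arm and triangles for the ER arm, coloured by where the gene was called. PPP1R15A, SDF2L1 and CANX lie in the lower left with calls in both.

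How the light difference itself differed between series was tested as an interaction. No member was called between 42 and 3 irradiations (0.435% of all genes called), 14 and 3 (0.0388%) or 42 and 14 (0.0544%), and 10, 12 and 9 members had an unadjusted p under 0.05, against 1450, 1030 and 1036 of the 12878 genes. ATF4 was among the larger ones, with a light difference higher at 42 than at 14 by 0.74 ± 0.16 log2 units (edgeR adjusted p = 0.132, called by DESeq2 and without a low-count filter), lower at 14 than at 3 by 0.61 (SE 0.16, 0.206), and 0.13 ± 0.16 between 42 and 3 (0.813). EDEM1 differed by 1.67 ± 0.40 between 14 and 3 (0.133), CEBPB by 1.30 ± 0.38 between 42 and 3 (0.217) and CHAC1 by 1.36 ± 0.45 between 42 and 3 (0.247). These values moved when single libraries were left out. ATF4 between 42 and 14 ran from 0.62 without dark_42 b to 0.87 without dark_42 a. EDEM1 between 14 and 3 ran from 1.32 without blue_3 b to 2.21 without blue_3 a. Between 42 and 3, CEBPB ran from 0.88 without blue_3 b to 1.96 without blue_3 a. CHAC1 ran there from 0.94 without dark_42 b to 2.02 without dark_42 a. The 42-against-3 and 14-against-3 tests share the 3-irradiation libraries.

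The other genes of the pathways were counted from 2 lists, 36 genes of ATF4 signalling, of which 33 were tested, and 40 ER genes, of which 38 were tested. Neither had a call with light at 3, 14 or 42 irradiations, against 0.0155%, 0% and 1.23% of all genes. ATF3, an ATF4-induced stress factor, was at 21.1 and 18.6 CPM in dark_3, 30.9 and 32.7 in blue_3, 23.8 and 21.3 in dark_14, 25.3 and 37.2 in blue_14, 31.0 in both dark_42 libraries and 19.6 and 23.8 in blue_42. Light was higher at 3 and 14 irradiations and lower at 42, without overlap each time, with light differences of 0.68 ± 0.16, 0.44 ± 0.18 and −0.51 ± 0.15 (edgeR adjusted p = 0.267, 0.804 and 0.113). Without a low-count filter it was called with light at 3 and at 42 irradiations. The difference between the light differences at 42 and 3, −1.19 ± 0.22, was the only call of either list in the 3 interaction tests (edgeR adjusted p = 0.0193). It was also called with DESeq2, with RLE scaling, under both other filters and on only the libraries compared, but was lost when dark_3 a, dark_3 b, blue_3 b, dark_42 b, blue_42 a or blue_42 b was left out.

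Between culture series, the ATF4 list had 8 calls from dark_3 to dark_14 (3 higher, 5 lower) and 9 to dark_42 (6 higher, 3 lower). The ER list had 1 (lower) and 7 (3 higher, 4 lower), where 12.7% and 17.7% of all genes were called. WARS1, the tryptophan tRNA ligase, rose by 0.70 ± 0.12 and 0.86 ± 0.11 log2 units (edgeR adjusted p = 0.000844 and 4.04e-05). VEGFA, the endothelial growth factor, rose by 0.74 ± 0.15 and 0.74 ± 0.14 (0.00321 and 0.0013). MTHFD1L and EPRS1 fell in dark_14, while ATF3 rose in dark_42 by 0.64 ± 0.16 (0.00789) and the transporter SLC7A1 fell in dark_42. Of the ER list, HYOU1, an ER chaperone, fell in dark_14 by 0.56 (SE 0.12, 0.00482). In dark_42, ERO1B, an oxidase that recharges disulfide isomerases, PDIA5 and UBE2J1 rose, and SSR3 fell by 0.60 (SE 0.13, 0.00296). From dark_14 to dark_42 the ATF4 list had 5 calls (4 higher, 1 lower) and the ER list 1 (higher), where 7.04% of all genes were called, 1.81% higher and 5.23% lower.

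Among the irradiated cultures, from blue_3, the ATF4 list had 4 calls to blue_14 (2 higher, 2 lower) and 5 to blue_42 (4 higher, 1 lower). The ER list had 3 (2 higher, 1 lower) and 5 (4 higher, 1 lower), where 6.22% and 7.78% of all genes were called. VEGFA rose by 0.96 ± 0.16 and 0.87 ± 0.14 log2 units (edgeR adjusted p = 0.00134 and 0.000596). ATF3 fell in blue_42 by 0.55 (SE 0.15, 0.0343), a call lost with DESeq2, while it rose in dark_42. HYOU1 fell by 0.52 and 0.53 (SE 0.12 each, 0.0185 and 0.00781), and ERO1A rose by 0.56 ± 0.15 and 0.58 ± 0.14 (0.0276 and 0.0134). Between blue_14 and blue_42 neither list had a call, where 0.241% of all genes were called and 11 and 3 list genes had an unadjusted p under 0.05, against 12.5% of all. The heat map of all members shows the arms by library.

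**Figure D4:**
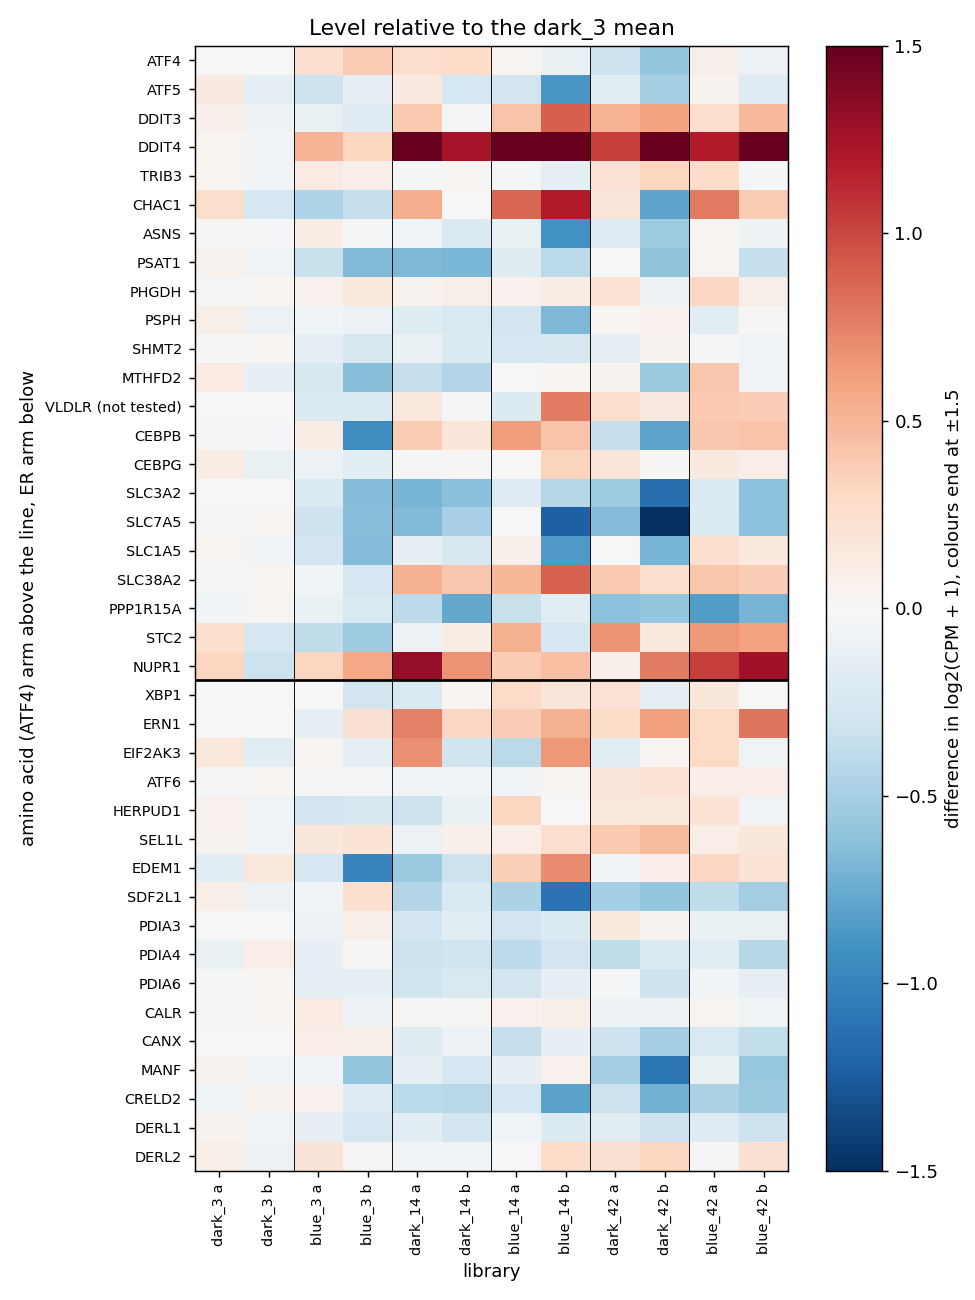
Difference in log2(CPM + 1) from the dark_3 mean (colour, ends at ±1.5) for the 39 members (rows, amino acid arm above the line) in the 12 libraries (columns). DDIT4 and SLC38A2 are red in all later libraries, PPP1R15A is blue in them, and SLC7A5 is darkest blue in dark_42 b.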

How the data were processed

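The authors deposited raw whole-number counts, with a row per gene and a column per library. Libraries were QuantSeq 3′ mRNA FWD, per the labels' protocols. STAR, featureCounts and GRCh38 come from the submitters' processing notes. The sources used here do not give versions, annotation or strand setting. Groups came from sample titles. The members and gene lists were chosen with earlier results of these data known, so they are not independent of them. Values per library are given for members called in any comparison, for ATF4, DDIT3, XBP1, ERN1, EIF2AK3 and ATF6, and for the 3 largest light differences per arm.

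Counts were tested with edgeR 4.0.16 in R 4.3.3: filterByExpr at a minimum count of 10, TMM, robust quasi-likelihood fit with 6 group means and 6 residual degrees of freedom, two-sided, Benjamini-Hochberg over 12878 genes, called at 0.05. The SE is the log2 difference over the root of F. CPM are TMM-scaled. The scripts were tested on simulated data. Alternatives were DESeq2 1.42.0, RLE scaling, no filter, a mean of 5 CPM, the replicate block, only the libraries compared, and each library left out. Leaving out the 14-irradiation libraries was chosen after seeing the data. Promoters and gene positions came from RefSeq and GENCODE 29. Some marker genes enter the sums and are not named here.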

Additional observations from a re-analysis of the deposited data

Results flagged for a closer look

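ATF3, counted among the other ATF4 genes, was the pathway gene whose light difference itself differed between series past the test: it was lower at 42 than at 3 irradiations by −1.19 ± 0.22 log2 units (edgeR adjusted p = 0.0193), a difference tested as an interaction. It was higher with light in 2 of 2 libraries at 3 irradiations and lower in 2 of 2 at 42. With each library left out in turn the difference ran from −1.34 to −1.06 log2 units. The call was made in 6 of these 12 fits. It was lost without dark_3 a, dark_3 b, blue_3 b, dark_42 b, blue_42 a or blue_42 b. The gene lists were chosen with earlier results of these data known.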

How the results depend on the processing

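Calls of members with light depended on the fit. For 42 irradiations against dark they numbered 2 with DESeq2, 3 with no filter on low counts, 1 (CEBPB) with the replicate letter as a block, 1 on only the libraries compared and 1 without the 14-irradiation libraries (an alternative added after seeing the data), and with no filter 1 after 3 irradiations. For the light effect at 42 against 3 they numbered 1 with DESeq2, 6 with no filter and 2 with the block, at 14 against 3 they numbered 5 with no filter and 1 on only the libraries compared, and at 42 against 14 they numbered 1 with DESeq2 and 1 with no filter. Between series they numbered 12 on only the libraries compared from dark_3 to dark_14 and from blue_3 to blue_42, 5 with no filter and 4 with the block from dark_14 to dark_42, and 8 with no filter from blue_3 to blue_14. Calls over all genes under each setting are not given here, so these counts do not set the members apart from other genes. The cause of the differences between fits was not tested.

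With each of the 12 libraries left out in turn, the number of called members ran from 0 to 3 for light at 42, from 0 to 6 for dark_14 and 1 to 12 for dark_42 against dark_3, from 1 to 3 for dark_42 against dark_14, from 1 to 7 for blue_14 and 1 to 9 for blue_42 against blue_3, from 0 to 4, 0 to 2 and 0 to 1 for the light effects at 42 against 3, 14 against 3 and 42 against 14, and stayed 0 for light at 3 and 14 and for blue_42 against blue_14. Calls over all genes are not given beside these ranges, so they do not set the members apart from other genes. Uncalled light differences that changed sign ran from −0.19 to 0.28 (ERN1), −0.23 to 0.12 (EIF2AK3) and −0.053 to 0.011 (ATF6) at 3, from −0.37 to 0.16 (ERN1) and −0.66 to 0.56 (EIF2AK3) at 14, and from −0.12 to 0.22 (XBP1), −0.20 to 0.42 (ERN1) and −0.011 to 0.41 (EIF2AK3) at 42, and that of CHAC1 at 42 against 14 from −0.38 to 0.70. RLE scaling shifted the median of all genes by under 0.02 and changed no member count by over 1.5 times. The letters are not shown to pair the libraries: the dark and irradiated differences between a and b correlated with r of 0.09, −0.27 and 0.38 in the 3 series, and with the block the fall of CANX from blue_3 to blue_42 lost its call (adjusted p = 0.0536), as no other member call did. Among the members, counts were lowest for ERN1, EIF2AK3, NUPR1 and VLDLR.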
